A study of Mus musculus with 30 samples.

Results

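The hypoxia pathway was described in mouse colon through 10 genes, which were Hif1a, Epas1, Arnt, Egln1, Egln3, Vegfa, Slc2a1, Car9, Ndrg1 and Adm. They were chosen by name for their textbook role, with earlier results of these data known, and matched by gene symbol and identifier to 10 of the 46078 genes counted. RNA was sequenced from the distal colon of 30 C57BL/6J mice, with 6 animals in each of 5 groups. Females (CD F) and males (CD M) were fed a control diet (CD, 10% of the energy from fat), and females (HFD F) and males (HFD M) a high-fat diet (HFD, 60%), for 13 weeks from an age of 5 to 6 weeks. These 4 groups were injected with vehicle, and a further group of HFD males (HFD+E2 M) with 17β-estradiol (E2, 0.5 mg/kg), 9 times over the last 3 weeks. No genetic change is given for any group, the females kept their ovaries, and E2 was given to males on HFD alone. The tissue was sequenced in bulk, so fewer cells of a type and less RNA per cell cannot be told apart.

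Hypoxia-inducible factor (Hif) is a pair of proteins that switches on genes when oxygen is short. The alpha subunit, Hif1a or Epas1 (also called Hif2a), is made all the time and destroyed when oxygen is present, because prolyl hydroxylases such as Egln1 and Egln3 mark it for the ubiquitin ligase that holds Vhl. When it is spared, it joins Arnt, the stable beta subunit, and binds the letters ACGTG or GCGTG near genes of glucose transport (Slc2a1), vessel growth (Vegfa), vessel tone (Adm), pH control (Car9) and stress (Ndrg1). The colon surface is a tissue of low oxygen, where Hif is known for its part in barrier and iron transport. Since the alpha subunits are set largely by protein stability, an mRNA level of Hif1a or Epas1 is not a level of Hif activity.

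The Hif core letters in the promoters are shown first, since the target genes were chosen for this control. RefSeq promoter windows (GRCm38.p6, 250 bases before to 50 after the start) were held for 8 of the 10 genes, named here as Hif1a, Arnt, Egln1, Egln3, Vegfa, Slc2a1, Car9 and Adm. ACGTG, read on either strand (CACGT on the other), stood in a window of 6 of these 8 genes, and in 21.8% of all 27025 genes with a window. The related letters GCGTG, on either strand, stood in 5 of 8, against 35.2% of all genes. A match to letters is a description and not a site of binding. The windows of these genes held 54.7% to 86% GC, and all genes were not matched to them for GC. With genes chosen partly for this control, the shares are not a test of enrichment. The ACGTG matches follow on the strand of the gene, 10 bases to each side, with the match in capitals.
Hif1a, chr12:73907722-73907747, +: cacagacaagCACGTGagcggggcag
Hif1a, chr12:73907787-73907811, +: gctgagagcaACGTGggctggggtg
Egln1, chr8:124949308-124949332, -: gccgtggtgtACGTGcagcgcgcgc
Egln3, chr12:54204089-54204113, -: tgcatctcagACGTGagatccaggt
Vegfa, chr17:46025360-46025384, -: agtgcgtgccCACGTcagagagcaa
Slc2a1, chr4:119108699-119108723, +: cccgccccggACGTGctccccaggc
Car9, chr4:43506998-43507022, +: atttccgatgCACGTacagcccgtc

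The first Hif1a match is CACGTG, the E-box, which reads ACGTG on both strands and was found in 8.09% of all genes with a window. The 250 bases before the RefSeq start of Hif1a, the gene with the clearest sex difference below, hold both of its matches. These 250 bases lie inside the gene as the GENCODE annotation gives it, past its start at 73901375. Whether they fall in an exon or an intron was not examined.
Hif1a upstream, chr12:73907617-73907866, +: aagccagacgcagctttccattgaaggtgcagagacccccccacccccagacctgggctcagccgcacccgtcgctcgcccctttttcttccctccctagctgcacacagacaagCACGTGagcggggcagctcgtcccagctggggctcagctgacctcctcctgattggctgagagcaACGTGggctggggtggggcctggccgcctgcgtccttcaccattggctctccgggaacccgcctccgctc
The Vegfa match is in the window of an inner start, and the window of its outer start held neither ACGTG nor GCGTG. The windows of Arnt and Adm held GCGTG alone, in 1 and 2 copies.

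The libraries held from 8667177 to 17243712 counts on genes (median 11530916), and mitochondrial genes took 26.1% to 38.0% of them. Colon epithelium markers, such as Epcam and Muc2, were present in every library, with a summed level of 4853 to 7206 TPM (transcripts scaled by gene length, with every library brought to 1 total). Markers of squamous epithelium, a tissue that the colon lacks, reached 1644 TPM in HFD F and 540 TPM in HFD M, and at most 14.6 TPM in the other 3 groups. The slope of log2 level on the GC content of the genes' transcripts differed between libraries. It was -0.60 log2 units per 10% of GC in HFD M replicate 1 and lay between -0.31 and 0.34 in the others. All 10 genes passed the count filter in all comparisons, and their counts ranged from 29 for Adm to 4308 for Hif1a in a single library.

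All 10 genes were expressed in every mouse. Hif1a had the highest level, with 69.2 ± 15.4 TPM (SD, n = 30), followed by Epas1 (37.6 ± 6.57), Ndrg1 (37.5 ± 5.71), Egln3 (37.2 ± 9.20) and Slc2a1 (30.5 ± 4.24). Vegfa (18.2 ± 3.18), Car9 (16.7 ± 3.44), Arnt (16.5 ± 2.75) and Egln1 (14.9 ± 1.73) formed a lower group, and Adm was lowest, with 4.94 ± 1.17 TPM. Counts divided by exon length and by library total gave the same first and last gene but placed Egln3 above Epas1 and Slc2a1 above Ndrg1, so the order of the genes between them depends on the scale. In each gene the 5 group means in TPM lay close together, and the highest was 1.07 times (Vegfa and Arnt) to 1.47 times (Hif1a) the lowest. Of the 40 pairs of groups that neighbour each other in a gene's order, 1 differed by more than the larger SD of the pair, which was Hif1a in CD M over HFD+E2 M.

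**Figure D1:**
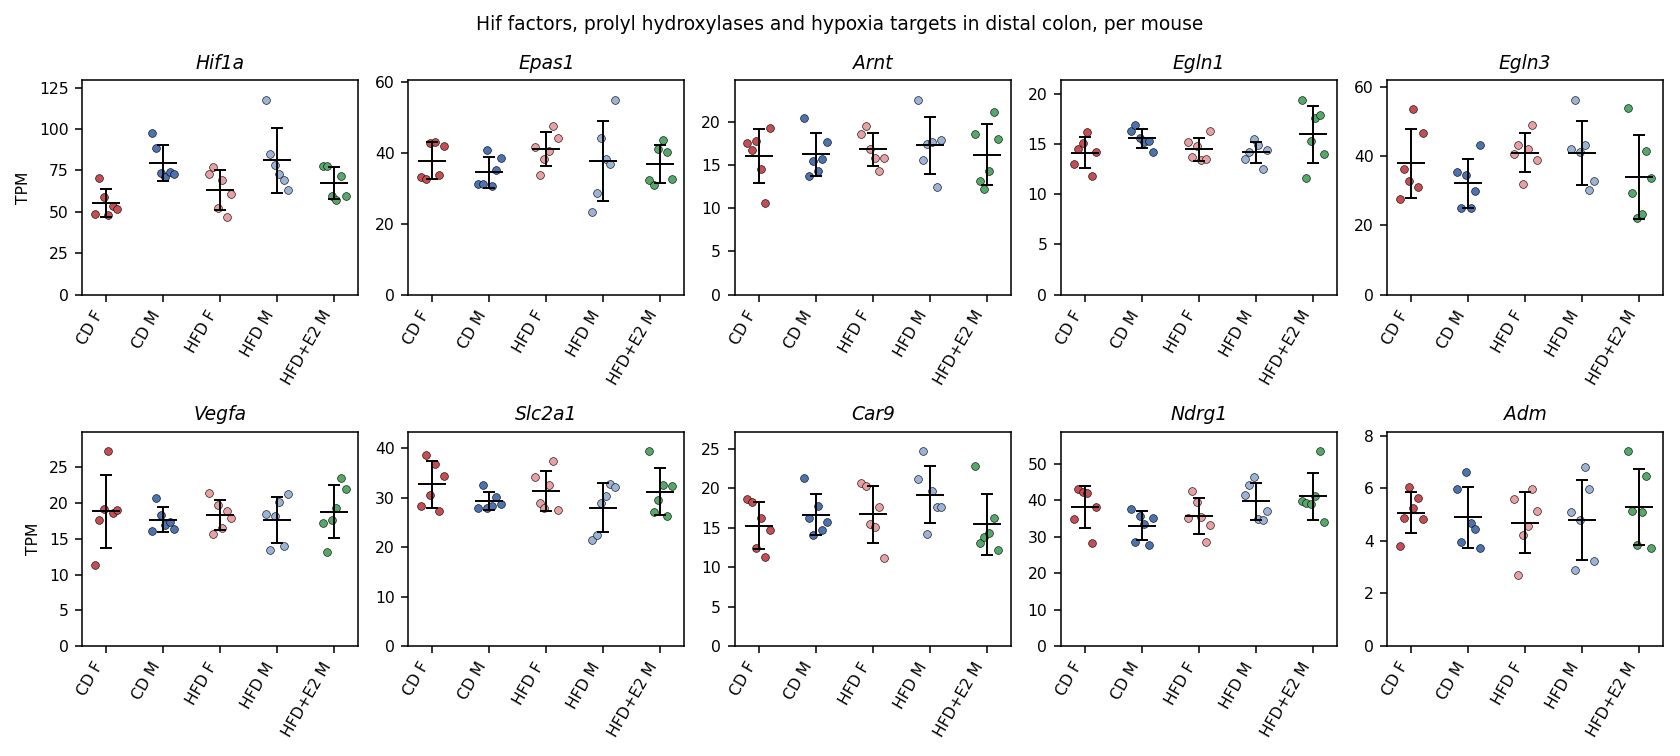
TPM of the 10 genes in each mouse by group, 1 point per mouse, with the mean and SD of 6 mice in black and each vertical axis starting at 0. Hif1a in CD F (47.9 to 70.2 TPM) lies below CD M (70.9 to 97.8 TPM), while in the other genes the 5 groups overlap.

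Of the 10 genes, Hif1a was the one that passed the threshold for a differentially expressed gene (DEG) between the sexes on CD, and it was lower in females. The paper, from the same data, already names Hif1a among its genes that differ between the sexes on CD. The threshold asked for p under 0.05 before adjustment, by edgeR's quasi-likelihood test on counts, together with a log2 fold change beyond 0.4 up or down, while the p-values printed here are adjusted over all genes tested. In CD F Hif1a was measured at 47.9 TPM in the lowest, 52.7 in the median and 70.2 in the highest mouse. In CD M these values were 70.9, 73.7 and 97.8 TPM, so that each male was above each female on this scale. The mean was 55.2 ± 8.31 TPM (SD, n = 6) in females and 79.5 ± 10.98 TPM (n = 6) in males. In log2 CPM, the counts scaled by library total and by a normalization factor of each library (TMM), the groups overlapped. The fitted log2 fold change was -0.44 ± 0.12 (SE; 95% confidence interval -0.69 to -0.19; edgeR adjusted p = 0.0584). With 1 of 10 genes called, the share was near the background, since 9.15% of the 14922 genes tested were DEGs and 2.74% also had an adjusted p-value under 0.05 (0 of the 10 genes). Without CD F replicate 1, CD F replicate 6 or CD M replicate 2 the log2 fold change of Hif1a was -0.39, -0.39 and -0.40, just under the minimum. Without CD F replicate 5 or CD M replicate 6 it was -0.52 and -0.49 and its adjusted p-value fell to 0.0271 and 0.0367. With the replicate number as a block in the fit it was -0.45 ± 0.09 (edgeR adjusted p = 0.00677). In log2 CPM, no gene of the 10 had groups without overlap, against 2.18% of all genes.

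On HFD the same comparison gave a smaller difference that did not pass. Hif1a ranged from 47.0 to 77.2 TPM in HFD F (median 65.1) and from 63.4 to 117.7 TPM in HFD M (median 75.6). The 2 groups overlapped, and the log2 fold change was -0.27 ± 0.13 (edgeR adjusted p = 0.872). None of the 10 genes was a DEG between HFD F and HFD M (background 3.09%, or 0.0988% with an adjusted p-value under 0.05), and none had groups without overlap (background 0.362%). The highest Hif1a level of all mice, 117.7 TPM, was that of HFD M replicate 1, the library that stands apart in its GC slope, and without this library the log2 fold change was -0.17. The sex differences on the 2 diets were compared directly by the interaction of sex and diet in the 24 vehicle-treated mice, which was 0.17 ± 0.18 for Hif1a (95% confidence interval -0.20 to 0.54; edgeR adjusted p = 0.856).

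Over both diets, Hif1a was 0.782 times as high in females as in males (95% confidence interval 0.688 to 0.889). The log2 fold change was -0.35 ± 0.09 (edgeR adjusted p = 0.0341). It passed the adjustment over all 15800 genes tested, as did 2.2% of them, but not the fold change minimum, so that none of the 10 genes was a DEG over both diets (background 5.58%, or 1.62% with an adjusted p-value under 0.05). With each of the 24 libraries left out in turn, the adjusted p-value ranged from 0.0105 to 0.0686 and stayed under 0.05 in 14 of 24. On log2(TPM + 0.1), limma gave -0.44 for the same difference (adjusted p = 0.0450), which is past the threshold for a DEG.

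Neither diet nor E2 gave a difference in Hif1a past the threshold. The log2 fold change was 0.15 ± 0.12 for HFD F against CD F and -0.03 ± 0.12 for HFD M against CD M (95% confidence interval -0.29 to 0.23). HFD+E2 M mice had 57.1 to 77.9 TPM (median 65.6), with a log2 fold change of -0.06 ± 0.15 against HFD M (95% confidence interval -0.38 to 0.25; edgeR adjusted p = 0.884). In TPM the mean was 67.2 ± 9.62 in HFD+E2 M and 81.0 ± 19.4 in HFD M, and these groups overlapped.

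Several library measures moved with the Hif1a difference on CD. All 10 smooth muscle markers were DEGs with a lower level in CD F (7 with an adjusted p-value under 0.05), and their summed level was 3082 to 4634 TPM in CD F and 4777 to 7938 TPM in CD M. The background for these and the next lists was 9.15% of all genes in either direction, or 2.74% with an adjusted p-value under 0.05. Endothelium markers (4 of 10 lower, 0 of 10 higher) summed to 24.7 to 42.8 TPM in CD F and 34.5 to 60.5 TPM in CD M. Fibroblast markers (4 of 8 lower) summed to 343 to 696 TPM in CD F and 618 to 1010 TPM in CD M. B cell markers (5 of 10 higher in females) summed to 14.7 to 69.1 and 0.888 to 55.4 TPM. Of 9 macrophage markers tested, 3 were lower and 1 higher in females, and of 12 colon epithelium markers 2 were lower and 2 higher. With the smooth muscle score, the mean log2 CPM of its markers, as a covariate, the Hif1a log2 fold change on CD was -0.33 ± 0.17 (edgeR adjusted p = 0.299), below the threshold. With the endothelium score it was -0.51 (adjusted p = 0.177). All 10 smooth muscle markers were lower in CD F, so their score and sex are confounded on CD. Fits with that score cannot tell the 2 apart, here or for the genes below. The correlation of Hif1a with the smooth muscle score was 0.19 over the 30 libraries and -0.25 with group means removed. With the endothelium score these values were 0.10 and -0.38, with the colon epithelium score 0.36 and 0.44, and with the mitochondrial share of the counts 0.55 and 0.52. The colon epithelium score was not used as a covariate. The part of the tissue makeup in the difference was not tested beyond these values. Hif1a (chr12:73901375-73947530, + strand, in GRCm38) overlaps the antisense gene Gm15283, which held a mean of 128 counts against 2618, and the sources used here do not say whether the counting used the strand.

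Epas1, the other alpha subunit, passed the threshold in none of the comparisons, and its fitted sex differences had the opposite sign to those of Hif1a. On CD it was 37.9 ± 5.15 TPM in females and 34.6 ± 4.36 TPM in males (n = 6 each), with a log2 fold change of 0.24 ± 0.13 (edgeR adjusted p = 0.425). On HFD the values were 41.0 ± 4.81 and 37.7 ± 11.2 TPM, with a log2 fold change of 0.20 ± 0.20. Without HFD M replicate 1 this difference was 0.07, and with the GC slope as a covariate, chosen after seeing the data, it was 0.0068. HFD M held both the lowest and the highest mouse of the series, 23.4 TPM in replicate 1 and 55.02 TPM in replicate 6. Its difference between HFD+E2 M and HFD M was 0.12 ± 0.18, and without HFD M replicate 1 it was -0.0014. With the smooth muscle score, confounded with sex on CD, as a covariate, the sex difference of Epas1 on CD was 0.52 (edgeR adjusted p = 0.127), past the threshold.

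Arnt, the beta subunit, was the least variable of the factors between groups. Its group means ran from 16.1 to 17.2 TPM, and its log2 fold changes in the 5 comparisons of groups lay between -0.04 and 0.03. The 95% confidence intervals of these 5 differences reached no further than -0.24 and 0.24, so a change past the 0.4 threshold lay outside all of them. Across libraries it ranged from 10.6 to 22.5 TPM.

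**Figure D2:**
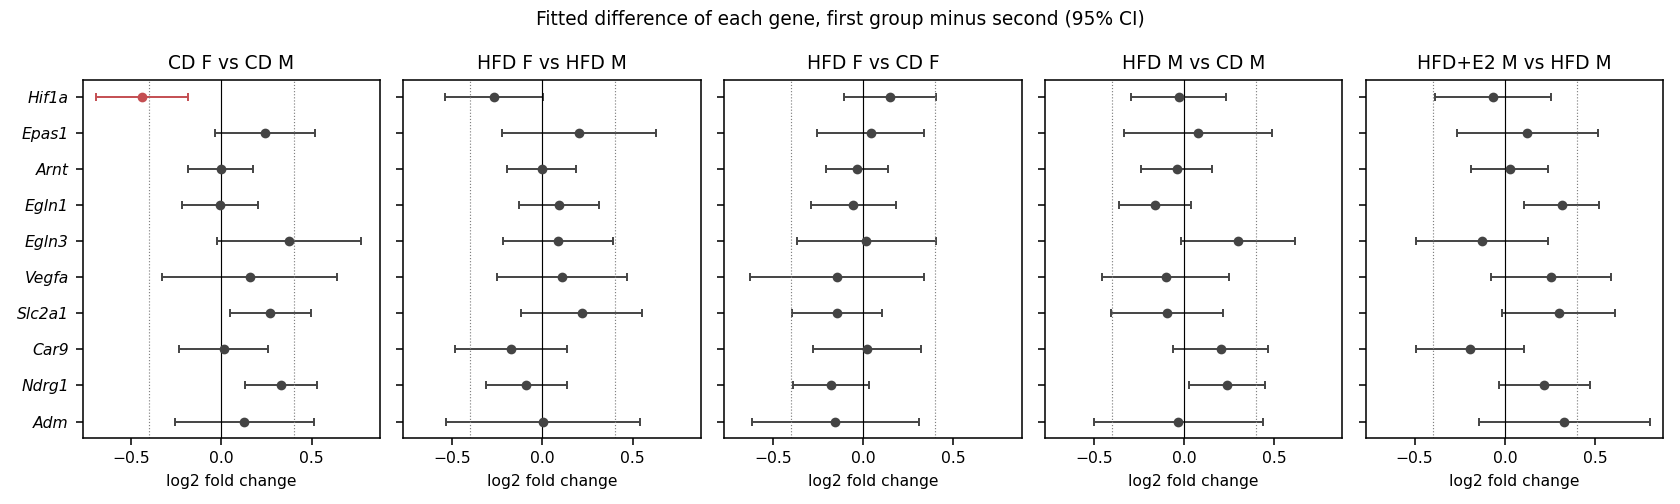
Fitted log2 fold change of each gene in the 5 comparisons of groups, first group minus second, with 95% confidence intervals, 6 mice per group. The dotted lines mark 0.4 in either direction, and Hif1a in CD F vs CD M, in red at -0.44, is the only DEG.

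Of the hydroxylases, Egln1, the main oxygen sensor for the alpha subunits, had a log2 fold change of 0.31 ± 0.10 between HFD+E2 M and HFD M (95% confidence interval 0.10 to 0.52; edgeR adjusted p = 0.454). The fold change minimum was not met. In log2 CPM the 6 E2-treated mice were all above the 6 vehicle-treated mice, which was so for 1 of the 10 genes and 0.413% of all genes. In TPM they overlapped, with 11.6 to 19.4 TPM (median 16.4) against 12.5 to 15.5 TPM (median 14.3), and limma on log2(TPM + 0.1) gave a difference of 0.15 (adjusted p = 0.679). None of the 10 genes was a DEG in this comparison (background 5.87%, or 0.00666% with an adjusted p-value under 0.05). In the other 4 comparisons of groups, the log2 fold change of Egln1 lay between -0.16 and 0.09.

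Egln3, a hydroxylase that is itself a Hif target, is induced when oxygen is low. It was 27.6 to 53.6 TPM in CD F (median 34.5) and 24.9 to 43.2 TPM in CD M (median 32.1), with a log2 fold change of 0.37 ± 0.19 (95% confidence interval -0.03 to 0.77; edgeR adjusted p = 0.378). Without CD F replicate 1 this difference was 0.47, and without CD M replicate 6 it was 0.47, both past the threshold for a DEG. HFD M had 41.0 ± 9.19 TPM, with a log2 fold change of 0.30 ± 0.15 against CD M (edgeR adjusted p = 0.825), and 0.40 without CD M replicate 6, again past the threshold. HFD+E2 M mice had 22.1 to 53.9 TPM (median 31.5) against 30.3 to 56.3 TPM (median 41.6) in HFD M, and the difference was -0.12 ± 0.17.

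Among the targets, Slc2a1, the glucose transporter Glut1, had a log2 fold change between females and males of 0.27 ± 0.11 on CD (edgeR adjusted p = 0.220) and of 0.24 ± 0.10 over both diets (adjusted p = 0.233), under the fold change minimum in both. On CD it measured 27.2 to 38.7 TPM in females (median 32.5) and 28.0 to 32.7 TPM in males (median 28.6), and the groups overlapped. With the smooth muscle score, confounded with sex on CD, as a covariate, its sex difference on CD was 0.50 (edgeR adjusted p = 0.0783). Over both diets that difference was 0.43 (adjusted p = 0.0145), and both passed the threshold. The E2 difference was 0.30 ± 0.15 (95% confidence interval -0.01 to 0.61; edgeR adjusted p = 0.505). Without HFD M replicate 5 it was 0.42, past the threshold, and without HFD M replicate 1 it was 0.20. With the GC slope of the libraries as a covariate, chosen after seeing the data, it was 0.11 (adjusted p = 0.961).

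Vegfa, the main growth factor of blood vessels, was not a DEG in any comparison. With the smooth muscle score, confounded with sex on CD, as a covariate, its sex difference on CD was 0.80 (edgeR adjusted p = 0.165). Over both diets that difference was 0.49 (adjusted p = 0.0300), and both passed the threshold. Its group means ran from 17.6 to 18.8 TPM. CD F held both the lowest and the highest mouse of all 30, with 11.4 TPM in replicate 1 and 27.3 TPM in replicate 4. The log2 fold changes lay between -0.15 (HFD F against CD F) and 0.26 (HFD+E2 M against HFD M), and the confidence intervals were wide, at -0.63 to 0.34 for the first of these.

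Adm, the vasodilator peptide adrenomedullin, was measured by 29 to 98 counts per library. Its group means ran from 4.69 to 5.28 TPM. The largest difference, 0.33 ± 0.23, was that of HFD+E2 M against HFD M (95% confidence interval -0.14 to 0.80; edgeR adjusted p = 0.575).

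Car9, the carbonic anhydrase that is among the genes most closely tied to Hif1a, was not a DEG in any comparison. It was highest in HFD M, with 19.2 ± 3.61 TPM, and lowest in CD F, with 15.3 ± 3.01 TPM. The log2 fold change was 0.20 ± 0.13 for HFD M against CD M, -0.17 ± 0.15 for HFD F against HFD M and -0.19 ± 0.14 for HFD+E2 M against HFD M. All 3 share the HFD M mice. Car9 (chr4:43506966-43513729, + strand) overlaps the antisense gene Gm12454, with a mean of 103 counts against 270, so its counts are uncertain where strand was not used.

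Ndrg1, a stress-response gene, was the one of the 10 whose sex difference depended on diet by the DEG threshold. On CD it was 28.3 to 42.9 TPM in females (median 40.1) and 27.8 to 37.5 TPM in males (median 34.2), with a log2 fold change of 0.33 ± 0.09 (edgeR adjusted p = 0.0720). On HFD it was 28.4 to 42.4 TPM in females (median 35.2) and 34.5 to 46.3 TPM in males (median 39.2), with -0.09 ± 0.11 (adjusted p = 0.901). The groups overlapped on both diets, with females mostly above males on CD. The interaction was -0.42 ± 0.14 (95% confidence interval -0.71 to -0.13; edgeR adjusted p = 0.603), as 1 of 10 genes against a background of 5.18% (0.0% with an adjusted p-value under 0.05, 0 of 15800 genes). Without CD F replicate 4, CD M replicate 2 or 5, HFD F replicate 1 or 5, or HFD M replicate 2, 3 or 5, each left out alone, it was -0.36 to -0.40 and under the fold change minimum. It was also under the minimum with limma on log2(TPM + 0.1), at -0.36 (adjusted p = 0.889), and with the endothelium score as a covariate, at -0.39. Between HFD and CD the log2 fold change of Ndrg1 was 0.24 ± 0.10 in males (edgeR adjusted p = 0.820) and -0.18 ± 0.10 in females (adjusted p = 0.973). HFD+E2 M had the highest mean, 41.0 ± 6.52 TPM, with a log2 fold change of 0.22 ± 0.12 against HFD M (adjusted p = 0.508).

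HFD by itself called none of the 10 genes. The background was 3.67% DEGs for HFD F against CD F (0.0199% with an adjusted p-value under 0.05), 2.9% for HFD M against CD M (0.0%, 0 of 14991 genes) and 2.78% over both sexes (0.405%). None of the 10 had groups without overlap in females (background 0.212%) or in males (background 0.354%). Over both sexes the largest difference was 0.16 ± 0.12 for Egln3, and the confidence intervals of all 10 genes lay between -0.43 and 0.41.

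The other genes of the pathway were read from 4 lists. Of 13 further factors and regulators, among them Vhl, Hif1an, Egln2, Hif3a and the coactivator Ep300, 12 passed the count filter in the 5 comparisons of groups and none was a DEG in any of them. Their median log2 fold change lay between -0.02 and 0.05, beside -0.01 to 0.01 for all genes.

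Common hypoxia targets, 28 genes of glycolysis, mitochondrial turnover, matrix and signalling, were all tested in each comparison. Between the sexes on CD, 3 of 28 were DEGs, all lower in females, against 9.15% of all genes in either direction, a share near the background. The glycolysis genes Pgk1, Ldha and Aldoa were at 0.03, 0.05 and 0.02. Lox, which crosslinks collagen, was 1.37 ± 0.315 TPM in CD F and 3.71 ± 1.08 TPM in CD M, with a log2 fold change of -1.18 ± 0.15 (edgeR adjusted p = 0.000439). Stc2, a secreted glycoprotein, was 0.854 ± 0.354 against 1.41 ± 0.198 TPM (-0.85 ± 0.21; adjusted p = 0.0390). P4ha2, a collagen hydroxylase, was at -0.43 ± 0.18 (adjusted p = 0.273), and with the smooth muscle score as a covariate its sign turned, to 0.22. Lox and P4ha2 act on collagen, and 4 of 8 fibroblast markers were also lower in CD F, as given above. A link between them was not tested. The median of the list was 0.05, beside 0.01 for all genes.

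On HFD, Car12, a membrane carbonic anhydrase, was the common target that moved most. It was 4.26 ± 4.35 TPM in HFD F, against 0.625 ± 0.233 TPM in CD F (2.31 ± 0.57; edgeR adjusted p = 0.412) and 1.01 ± 1.02 TPM in HFD M (1.74 ± 0.70; adjusted p = 0.872). The HFD F mice ranged from 1.04 to 12.2 TPM, and the squamous epithelium markers were high in part of the same group, as given above. With the squamous epithelium score as a covariate, the log2 fold change of Car12 was 0.41 against CD F and 0.68 against HFD M, and neither passed the threshold. In females Hk2, the first enzyme of glycolysis, was -0.42 ± 0.12 on HFD (adjusted p = 0.496) and P4ha2 was 0.45 ± 0.20 (adjusted p = 0.835). In males Bnip3, a receptor for the removal of mitochondria, rose from 31.5 ± 6.63 to 44.6 ± 9.53 TPM on HFD (0.52 ± 0.16; edgeR adjusted p = 0.704), and Stc2 was at -0.68 ± 0.22. With E2, Ak4, an adenylate kinase of mitochondria, was at -0.61 ± 0.27 (edgeR adjusted p = 0.476), a DEG by the unadjusted p-value. Of the 28 genes, 2 were higher and 1 lower on HFD in females (background 3.67%), and 1 higher and 1 lower in males (2.9%). Between HFD F and HFD M 1 was higher (3.09%), and with E2 1 was higher and 1 lower (5.87%).

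Intestinal Hif targets, genes of the epithelial barrier and of iron uptake, had 11 of 13 members tested, with Ankrd37 on both this and the previous list. On CD, 3 of the 11 were higher and 1 lower in females (background 9.15% in either direction), and the median was -0.10 beside 0.01 for all genes. Slc40a1, the iron exporter ferroportin, was 127 ± 32.1 TPM in CD F and 68.9 ± 16.0 TPM in CD M (1.04 ± 0.15; edgeR adjusted p = 0.00160). Slc11a2, the iron importer of the apical membrane, was 43.6 ± 22.3 against 18.0 ± 4.59 TPM (1.28 ± 0.33; adjusted p = 0.0603). Tff3, a goblet cell peptide, was at 0.84 ± 0.29 (adjusted p = 0.173), and at -0.15 with the smooth muscle score as a covariate. Ckb, a creatine kinase, was at -0.63 ± 0.17 (adjusted p = 0.0612).

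Both iron transporters were also DEGs for HFD M against CD M, with 0.58 ± 0.15 for Slc40a1 and 0.81 ± 0.23 for Slc11a2 (adjusted p = 0.537 and 0.704). They were 2 of the 11 tested, against 2.9% of all genes, and 0 of all 14991 genes passed the adjusted threshold. With E2, Slc11a2 was at -0.55 ± 0.20 and Cldn1, a tight junction protein, at -0.72 ± 0.28 (adjusted p = 0.456 and 0.461). These were 2 of 11, against 5.87% of all genes. The E2 comparison and that of HFD M against CD M share the HFD M mice. In females on HFD, Cldn1 was at 1.11 ± 0.26 (adjusted p = 0.410), as 1 of 11 against 3.67% of all genes. The summed squamous epithelium markers had a median of 944 TPM in HFD F and 1.60 TPM in CD F, and reached 540 TPM in HFD M and 1.66 TPM in HFD+E2 M. With their score as a covariate, the log2 fold change of Cldn1 was 0.25 in females on HFD and -0.18 with E2, and neither passed the threshold. Over both diets Slc40a1 (0.59 ± 0.12, adjusted p = 0.00603) and Slc11a2 (0.91 ± 0.23, adjusted p = 0.0351) passed the adjusted threshold.

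The partners of Vegfa and Adm, their receptors and related ligands, had 4 of 12 tested genes lower and none higher in CD F than in CD M (background 9.15% in either direction), with a median of -0.23 beside 0.01 for all genes. Flt1, a Vegf receptor, was 1.11 ± 0.114 against 2.39 ± 0.768 TPM (-0.84 ± 0.15; edgeR adjusted p = 0.00686), and Nrp2, a coreceptor, 18.9 ± 2.70 against 27.5 ± 3.17 TPM (-0.43 ± 0.10; adjusted p = 0.0350). Flt4, the receptor of lymphatic vessels, and Ramp2, a part of the Adm receptor, were at -0.46 ± 0.14 and -0.53 ± 0.24 (adjusted p = 0.0848 and 0.318). In the same comparison endothelium markers had a median log2 fold change of -0.41 and smooth muscle markers one of -0.61. Fits with the marker scores as covariates were run for these 4 genes too, but their values are not given here. The part of the tissue makeup in these 4 differences was not tested further. The ligands themselves were at 0.16 ± 0.23 for Vegfa and 0.13 ± 0.18 for Adm. With E2, Calcrl, the other part of the Adm receptor, was 5.29 ± 1.13 against 8.57 ± 1.64 TPM (-0.47 ± 0.13; edgeR adjusted p = 0.454). It was 1 of 11 genes tested, against a background of 5.87%.

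**Figure D3:**
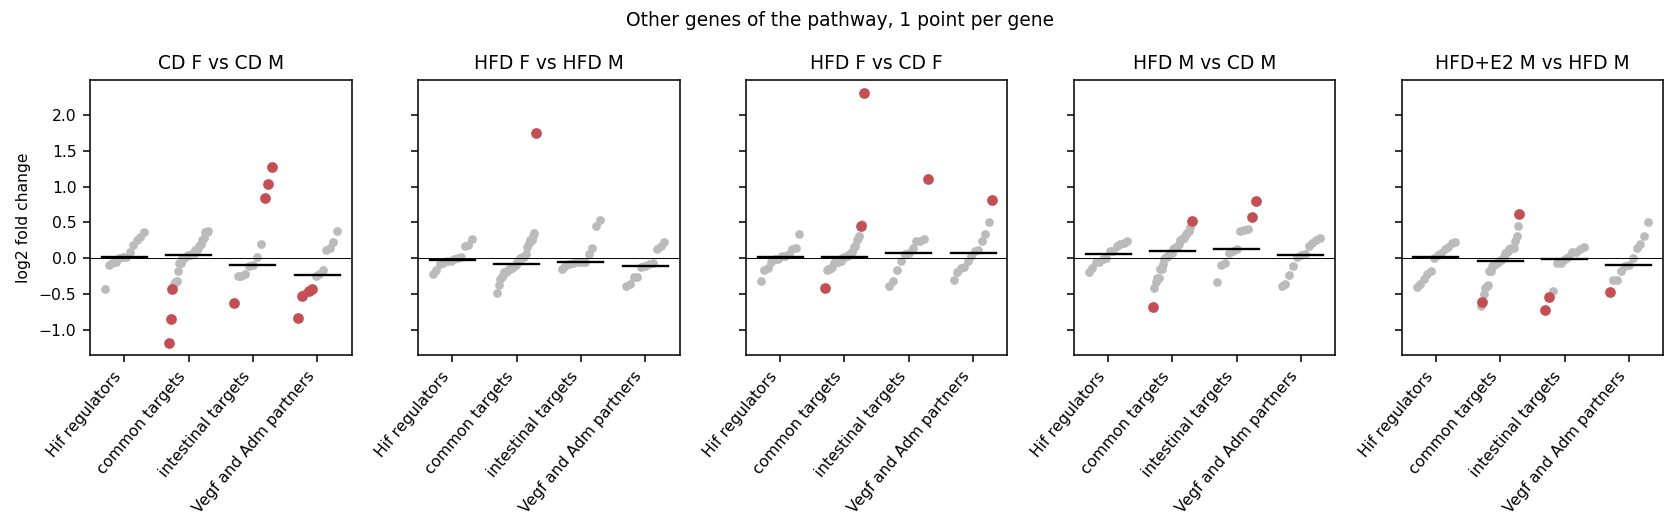
Log2 fold change of each gene of the 4 pathway lists in the 5 comparisons of groups, 1 point per gene, DEGs in red, with the list's median as a black line. The 13 regulators hold no red point, and on CD the Vegf and Adm partners have 4 red points, all below 0.

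The 10 genes did not vary together as one group over the 30 libraries. Egln1 and Vegfa had the highest correlation of log2 CPM (r = 0.74), followed by Epas1 with Slc2a1 (0.66), Epas1 with Vegfa (0.65) and Vegfa with Slc2a1 (0.64). The correlation of Hif1a with the 5 targets ran from -0.31 (Slc2a1) to 0.20 (Adm), or from -0.11 to 0.30 with group means removed, and Hif1a was negatively correlated with Epas1 (-0.48). Car9 was negatively correlated with Epas1 (-0.43) and Vegfa (-0.40). These are descriptions over 30 libraries of 5 groups that share depth and base composition effects, and with group means removed they were 0.77 for Egln1 and Vegfa, 0.65 for Epas1 and Slc2a1 and -0.40 for Hif1a and Epas1.

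**Figure D4:**
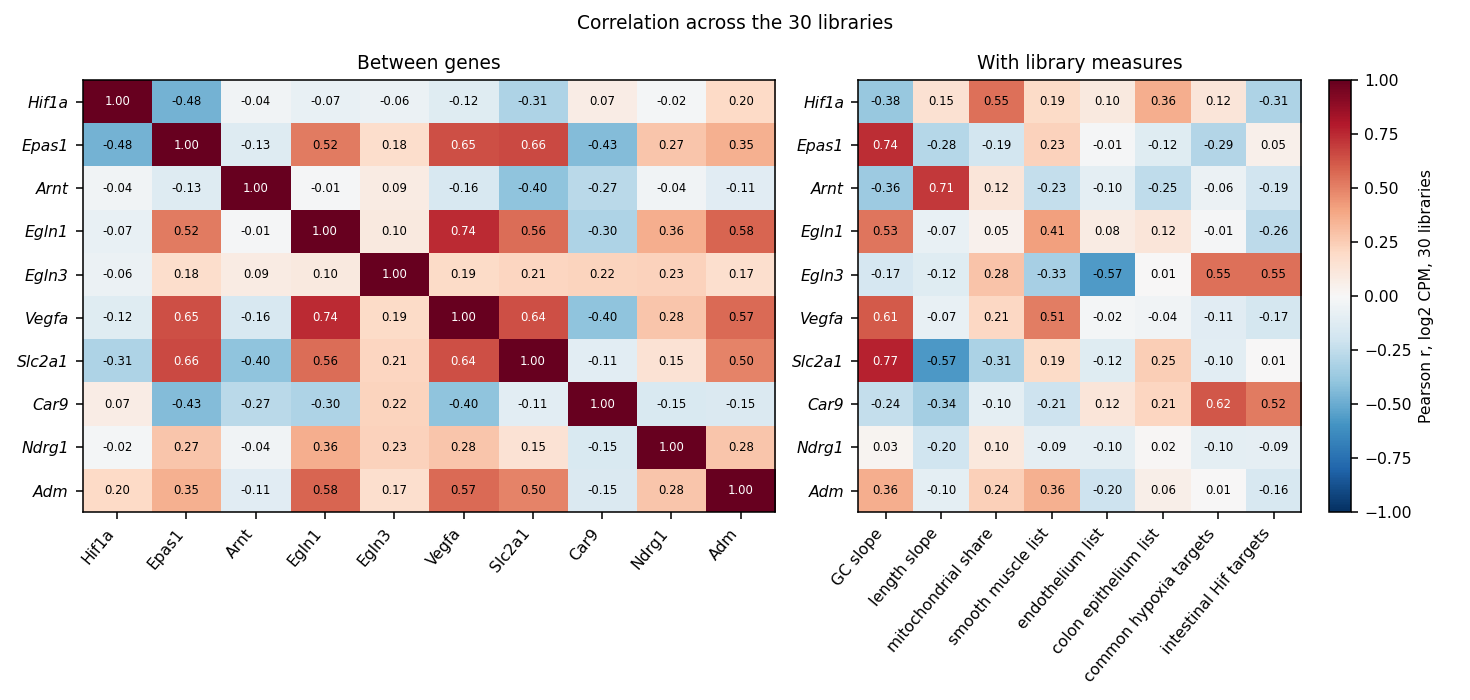
Pearson correlation of log2 CPM over 30 libraries, between the 10 genes (left) and of each gene with measures of the library (right), red for positive and blue for negative. Epas1, Egln1, Vegfa, Slc2a1 and Adm form a block of positive values, and Epas1, Vegfa and Slc2a1 are the genes with the highest correlation with the GC slope.

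The genes of that block also followed the base composition of the libraries. The correlation with the GC slope was 0.77 for Slc2a1, 0.74 for Epas1, 0.61 for Vegfa, 0.53 for Egln1 and 0.36 for Adm, and -0.38 for Hif1a. The longest transcript of Hif1a has the lowest GC content of the 10 (41.3%, against 56.0% for Egln1 and a median of 49.0% over genes). The GC content of the genes did not give the order of these correlations. Car9, at 53.9%, had -0.24 where Slc2a1, at 54.0%, had 0.77, and Egln3, at 51.4%, had -0.17 where Vegfa, at 50.9%, had 0.61. Without HFD M replicate 1 the correlations were 0.66 for Slc2a1, 0.60 for Epas1, 0.57 for Vegfa, 0.38 for Egln1, 0.35 for Adm and -0.21 for Hif1a. With the line on the GC slope taken out of each gene, the correlation fell from 0.66 to 0.21 for Epas1 and Slc2a1 and from 0.64 to 0.34 for Vegfa and Slc2a1, and was 0.62 for Egln1 and Vegfa. For Hif1a and Epas1 it went from -0.48 to -0.32. Without HFD M replicate 1, and with the slope left in, the correlation of Hif1a and Epas1 was -0.36. Arnt followed the slope on transcript length instead (0.71). The mean GC slope was -0.13 in HFD M and 0.09 in HFD+E2 M, and between 0.00 and 0.03 in the other groups. With the slope as a covariate, the Hif1a sex difference on CD was -0.44 and that on HFD -0.14.

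**Figure D5:**
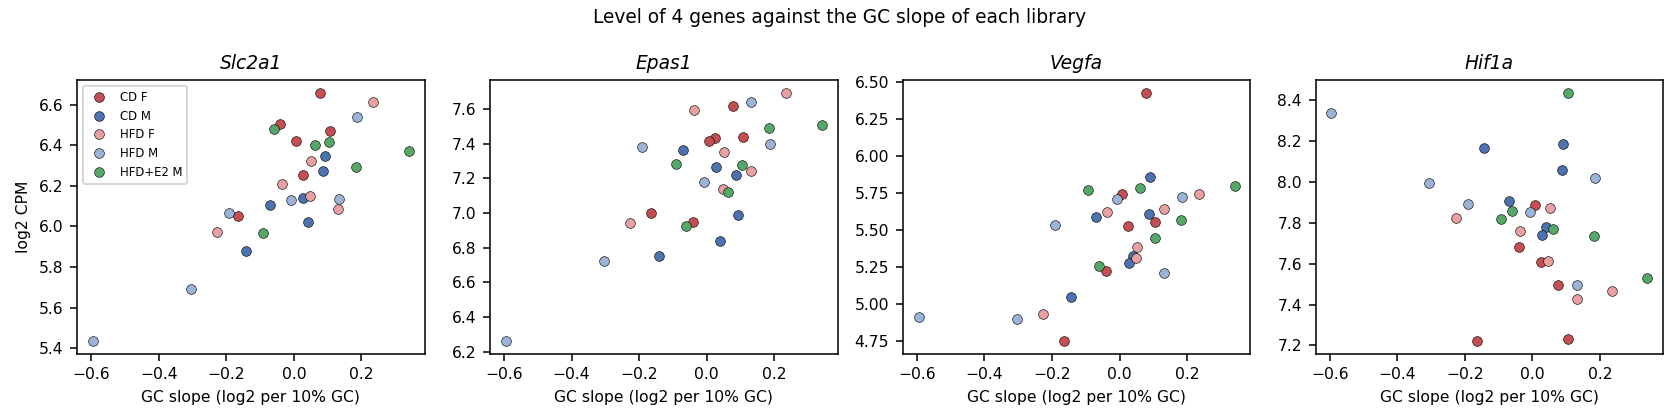
Log2 CPM of 4 genes against the GC slope of each of the 30 libraries, coloured by group. HFD M replicate 1, at a slope of -0.60, is the leftmost point, with the lowest Slc2a1 and Epas1 of all libraries.

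Car9 and Egln3 went with the scores of the 2 lists of other hypoxia targets, and with each other at 0.22. With Vegfa, Slc2a1, Ndrg1 and Adm, Car9 had correlations of -0.40 to -0.11 and Egln3 of 0.17 to 0.23. The correlation with the score of the common hypoxia targets was 0.62 for Car9 and 0.55 for Egln3 (0.63 for both within groups), and with the score of the intestinal targets 0.52 and 0.55. For the other 8 genes the correlation with the common targets lay between -0.29 and 0.12. Car9 was negatively correlated with the enteric neuron and glia markers (-0.48) and Egln3 with the endothelium markers (-0.57), while Vegfa was positively correlated with the smooth muscle markers (0.51).

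The genes most like each of the 10 were sought among 15452 genes with a mean of at least 1 TPM. Hif1a was nearest to Twf1 (r = 0.81), Cab39 (0.80) and Wapal (0.76), and Epas1 to Trak1 (0.88), Wdtc1 (0.86) and Sirt2 (0.85). Arnt was nearest to Adnp (0.73), RP23-293K21.2 (0.71) and Dclre1c (0.69). For Egln1 these were St14 (0.79), Mup-ps23 (0.76) and Plekhm1 (0.75), and for Egln3 they were Pparg (0.72), Steap4 (0.71) and Chdh (0.70). Vegfa had Ankrd11 (0.89), Pdgfa (0.89) and Tshz1 (0.89), and Slc2a1 had Pfkl (0.90), Agpat1 (0.86) and Itga3 (0.86). Car9 had S100a6 (0.77), Higd1a (0.77) and Trappc10 (0.76), of which Higd1a is on the list of common hypoxia targets. Ndrg1 was nearest to Bsdc1 (0.74), Ifngr2 (0.74) and Ppfibp2 (0.72), and Adm to Ldhal6b (0.71), Ppp1r10 (0.68) and Ep300 (0.68). The 3 genes nearest to Slc2a1 had correlations with the GC slope of 0.83 to 0.88, and those nearest to Epas1 of 0.75 to 0.87, as high as or higher than the genes they resemble.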

How the data were processed

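The 10 genes and the lists were chosen with earlier results of these data known. Per the labels, libraries were made from ribosomal RNA-depleted RNA with a stranded kit. The authors mapped the reads to GRCm38 with STAR and deposited counts per gene from featureCounts, without normalization, and TPM values from StringTie, which were used as deposited. The strand setting of the counting and the annotation are not given in the sources used here. The submitters' processing notes also name Trim Galore and bcl2fastq 2.19.1.403.

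Each comparison of 2 groups was fitted to its 12 libraries, and the interaction and the means over both diets or sexes to the 24 vehicle libraries, with edgeR 4.0.16 (R 4.3.3; filterByExpr, TMM, robust quasi-likelihood F-test), and p-values were adjusted by Benjamini-Hochberg over all genes tested. The threshold follows the paper's, which does not say whether its p-value was adjusted. Scripts were tested on simulated data. Levels are TPM, mean ± SD. Correlations used log2 CPM (prior count 2, with TMM factors over all 30 libraries). Scores used markers with a mean over 0.1 CPM. Named pathway genes are the up to 4 DEGs per list and comparison with the smallest p, apart from Pgk1, Ldha and Aldoa, which were chosen after their values were seen. A gene that this rule also names is not reported here. Alternatives were DESeq2 1.42.0, its size factors, other count filters, 1 fit of all 30 libraries, the replicate block, marker scores or the GC slope as covariates, each library left out, and limma 3.58.1 on log2 TPM with 0.1 or 1 added, with and without a filter at a mean of 0.1 TPM. FPKM values and the coverage of each gene, also made by the authors with StringTie and deposited, were not used. Two-sided tests were used throughout, and counts are of reads without molecular identifiers.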

Additional observations from a re-analysis of the deposited data

Results flagged for a closer look

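The 10 genes in 5 groups gave 50 sets of 6 mice, in which a single mouse was tested for lying far from the other 5 in log2 CPM, by its gap to the nearest mouse as a share of the whole range against Dixon's critical value. Chance gives about 1 such set in 20. It was so for 3 sets. Hif1a in HFD+E2 M was highest in replicate 2, with a share of 0.640 and a log2 CPM of 8.44 against 7.53 to 7.86 in the others, while in TPM it did not stand apart (77.9, against 77.8 in replicate 1). Egln1 in HFD M was lowest in replicate 1, with a share of 0.630 and a log2 CPM of 4.89 against 5.14 to 5.28, while in TPM it was not the lowest (13.5, against 12.5 in replicate 5). This is the library with the GC slope of -0.60. Slc2a1 in HFD+E2 M was lowest in replicate 5, with a share of 0.633 and a log2 CPM of 5.97 against 6.29 to 6.48, while in TPM the next mouse was close (26.3, against 27.1 in replicate 2).

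The sex difference itself differed between the diets, by the interaction term and the DEG threshold, for 1 of the 10 genes, Ndrg1 (-0.42), and for 4 of 28 common hypoxia targets, which were Stc2 (1.16), P4ha2 (0.77), Car12 (1.93) and Lox (0.70), all in log2 units. It did so for 1 of 11 intestinal targets, Slc40a1 (-0.90), for 0 of 13 regulators and for 0 of 12 partners of Vegfa and Adm, beside 5.18% of all genes tested. With edgeR, none had an adjusted p-value under 0.05, and the lowest was 0.397 for Slc40a1. Slc40a1 was 127 ± 32.1 TPM in CD F, 68.9 ± 16.0 in CD M, 114 ± 34.0 in HFD F and 107 ± 25.5 in HFD M (n = 6 each). Its interaction lay between -0.92 and -0.68 under the other settings tried and between -1.04 and -0.79 with each library left out. Stc2 and P4ha2 passed the threshold with every library left out in turn, and Lox did not in 5 of 24 such fits.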

How the results depend on the processing

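Of the 80 fold changes of the 10 genes, none that passed the threshold changed sign under any setting tried, and of 2376 refits of fold changes that passed none, 190 had another sign than reported, all without passing. Between CD F and CD M, 1 of the 10 genes (Hif1a) passed the threshold. It was 4 with the smooth muscle score, confounded with sex on CD, as a covariate (Epas1, Vegfa, Slc2a1 and Ndrg1, without Hif1a). It was 2 with the B cell score, and 0 to 2 with each library left out in turn. After adjustment it was 0, 1 with DESeq2 (Hif1a, adjusted p = 0.0248), 1 without a filter on low counts, 1 with the squamous epithelium score, 1 with the replicate block, and 0 to 1 with each library left out. Between HFD F and HFD M it was 0, and 1 with the endothelium score (Hif1a, -0.44). For HFD M against CD M it was 0, and 0 to 1 with each library left out. For HFD+E2 M against HFD M it was 0, 1 with the B cell score (Adm, 0.52), and 0 to 1 with each library left out. The interaction had 1 (Ndrg1), 0 with the endothelium score, and 0 to 1 with each library left out. Over both diets, females against males had 0, then 4 with the smooth muscle score (Epas1, and after adjustment the other 3, Hif1a, Vegfa and Slc2a1) and 1 with the endothelium score (Hif1a, 1 after adjustment). With limma on log2 TPM, the interaction of Ndrg1 was under the minimum (-0.36 to -0.35 in 3 fits), and Hif1a over both diets passed the threshold (-0.44 to -0.43 in 3 fits, adjusted p = 0.0450 to 0.0617). The cause of these changes was not tested.

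The pathway DEGs named by the rule above were refitted in the same way. Under the other settings, 448 refits passed the threshold with the same sign, 96 no longer passed it and 2 changed sign. These 2 were P4ha2 (0.22) and Tff3 (-0.15) between CD F and CD M with the smooth muscle score. With each library left out in turn, 539 refits passed and 85 did not. Samples with the same replicate number did not deviate together in all pairs (correlations from -0.35 to 0.61, over 0.1 in 2 to 5 of 6 pairs, and best with their own number in 0 to 4 of 6). The highest counts, 5 and 4 of 6, were those of CD F against CD M and of HFD M against CD M. The numbers were not taken as pairs in the main fits, and whether they mark a batch was not tested. The replicate block moved none of the 80 fold changes across the threshold, and moved the DEGs among all genes between CD F and CD M from 1366 to 1538. Counts of DEGs over all genes moved by over 1.5 times under several settings. Without the filter on low counts they were 2253 for CD F against CD M (1366), 1165 for HFD F against HFD M (469), 1496 for HFD F against CD F (553), 1056 for HFD M against CD M (434), 1805 for HFD+E2 M against HFD M (881), 1543 for the interaction (818), 1840 for females against males over both diets (881) and 1525 for HFD against CD over both sexes (440). With at least 10 counts in every library the last 2 were 497 and 173. DESeq2 gave 730, 1018 and 831 where 469, 553 and 440 were found. With the smooth muscle score CD F against CD M had 2161, HFD F against HFD M 852, the interaction 490 and females against males over both diets 1482. With the B cell score CD F against CD M had 874, with the endothelium score HFD F against HFD M had 1307 and the sexes over both diets 1407, and with the squamous score HFD F against CD F had 348, HFD+E2 M against HFD M 477 and the interaction 463. With the GC slope, chosen after seeing the data, HFD+E2 M against HFD M had 405. HFD+E2 M against HFD M had 557 without HFD M replicate 2, 1391 without HFD M replicate 5 and 1497 without HFD+E2 M replicate 1. HFD F against HFD M had 770 without HFD F replicate 2 and 720 without HFD M replicate 6, HFD M against CD M had 706 without CD M replicate 1, and the interaction had 1418 without HFD F replicate 2. Counts were fewest for Adm, with 29 to 98.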
